A study of Homo sapiens with 12 samples.

Results

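The genes described here are the metallothioneins and the core of the zinc response, 10 named genes of the 22963 gene names in the expression table. They were taken by gene symbol: MT1A, MT1E, MT1F, MT1G, MT1H, MT1M, MT1X and MT2A, the zinc-sensing transcription factor MTF1 and the zinc exporter SLC30A1. The data are 12 RNA-seq libraries, 3 in each of 4 groups, made from 2 human hepatocellular carcinoma cell lines. PLC/PRF5 cells carried either the empty expression vector or the coding sequence of the transcription factor EGR1, delivered by lentivirus and driven by a CMV promoter. MHCC97H cells were either parental or labelled EGR1 knockout, the latter grown from single clones edited with CRISPR/Cas9, and which clone was sequenced was not given in the sources used here. The labels call the 3 libraries of each group biological replicates and do not say how their cultures were kept apart. Expression was given as FPKM, fragments scaled to transcript length and to library size, which allows levels of different genes to be compared per length. The number of reads behind each value is unknown, so no counting error or detection limit can be given.

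Metallothioneins are small proteins, very rich in cysteine, that bind zinc, copper and cadmium through their thiol groups and buffer the free metal in the cell. When zinc rises, MTF1 binds metal response elements in the promoters of metallothionein genes and of SLC30A1, whose protein moves zinc out across the plasma membrane. The liver is a main site of metallothionein production, and glucocorticoids and oxidative stress also raise these genes.

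All 8 metallothionein members lie in a cluster on chromosome 16, each with 3 exons in GENCODE release 29 on GRCh38. MT2A is annotated on the plus strand at chr16:56608199-56609497, MT1X on the plus strand at chr16:56682424-56684196, and MT1G on the minus strand at chr16:56666731-56668065. MTF1 (chr1:37809567-37859620, 11 exons) and SLC30A1 (chr1:211571568-211578742, 2 exons) lie on the minus strand of chromosome 1. Each of the 8 metallothionein coding sequences held 183 bases without the stop codon, and 20 of the 61 codons (32.8%) coded for cysteine. The coding sequences of MT2A and MT1X, the most abundant members, are shown because their likeness bears on how reads were assigned to them, with cysteine codons in capitals.
MT2A: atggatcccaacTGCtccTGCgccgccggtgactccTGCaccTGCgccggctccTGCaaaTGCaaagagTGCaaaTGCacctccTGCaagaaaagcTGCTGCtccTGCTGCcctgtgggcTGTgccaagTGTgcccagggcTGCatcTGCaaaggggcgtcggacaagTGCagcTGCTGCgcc
MT1X: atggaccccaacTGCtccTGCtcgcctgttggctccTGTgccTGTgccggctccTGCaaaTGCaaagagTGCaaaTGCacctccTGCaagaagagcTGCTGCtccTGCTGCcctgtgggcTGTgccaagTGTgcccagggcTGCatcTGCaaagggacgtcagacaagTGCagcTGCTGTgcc
MT2A and MT1X were identical at 92.3% of coding positions and shared a run of 63 bases. Over the 28 pairs of metallothioneins the identity ranged from 88.5% to 95.1%, and the longest shared run, between MT1G and MT1X, was 96 bases. Reads could therefore be split between these paralogs in a way that the files do not show, and the value of a single metallothionein is less certain than the sum over them. A further annotated transcript overlaps MT1X, and its reads cannot be told from those of MT1X here.

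RefSeq promoter windows on GRCh38.p14, from 250 bases before to 50 bases after the transcription start, matched 5 of the 10 genes: MT1H, MT1X, MT2A, MTF1 and SLC30A1. MT1A, MT1E, MT1F, MT1G and MT1M had no entry. The windows were searched on both strands for the core of the metal response element, the letters TGCACNC or TGCGCNC, counting overlapping matches. The 250 bases before the start are shown for the 2 abundant metallothioneins and for SLC30A1, with the matches in capitals. These 3 were chosen with their rise in PLC/PRF5 known. MTF1 was called higher there as well, but its window, with 0 matches, is not shown.
MT2A promoter, chr16:56608334-56608583, plus strand: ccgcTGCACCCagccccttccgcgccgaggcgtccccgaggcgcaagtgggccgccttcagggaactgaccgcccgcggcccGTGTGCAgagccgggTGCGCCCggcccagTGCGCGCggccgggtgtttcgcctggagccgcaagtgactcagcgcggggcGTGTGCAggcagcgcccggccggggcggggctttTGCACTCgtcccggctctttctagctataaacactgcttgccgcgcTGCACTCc
MT1X promoter, chr16:56682220-56682469, plus strand: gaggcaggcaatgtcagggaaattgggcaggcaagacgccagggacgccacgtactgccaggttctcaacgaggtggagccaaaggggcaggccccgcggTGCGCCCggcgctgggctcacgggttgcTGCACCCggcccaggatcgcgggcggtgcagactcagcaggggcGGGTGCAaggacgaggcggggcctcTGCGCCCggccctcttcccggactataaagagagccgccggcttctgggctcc
SLC30A1 promoter, chr1:211579162-211579411, minus strand: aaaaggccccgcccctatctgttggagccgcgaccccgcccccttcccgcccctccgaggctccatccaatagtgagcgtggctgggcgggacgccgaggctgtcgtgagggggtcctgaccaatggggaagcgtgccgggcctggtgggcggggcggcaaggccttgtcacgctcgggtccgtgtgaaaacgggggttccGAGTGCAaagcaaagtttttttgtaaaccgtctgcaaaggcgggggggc
The MT2A window held 8 matches, 7 of them before the start, and the MT1H window also held 8. The MT1X window held 4 and the SLC30A1 window 2, while MTF1 had 0. Of the 35116 windows in the RefSeq table, 29.6% held at least 1 match, 8.60% at least 2, 0.601% at least 4 and 0.0199% at least 8. The binding motif of EGR1, searched as GCGNGGGCG on both strands, had 0 matches in the 5 windows and at least 1 in 5.77% of all windows. The RefSeq starts of MT2A, MT1X, MTF1 and SLC30A1 differ from the GENCODE 29 gene ends given above. These matches describe the letters of the windows and not the binding of a factor. The GC content of the 5 windows was 67.0% to 72.0%, against a median of 58.7% over all windows.

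**Figure D1:**
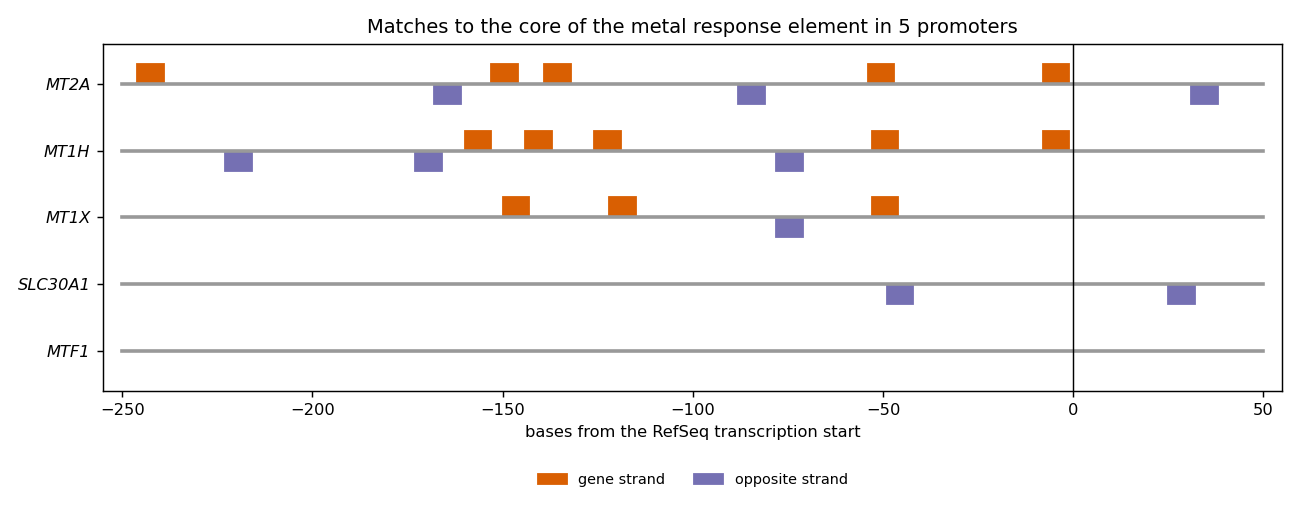
Position of each match to the metal response element core in the 5 RefSeq promoter windows, in bases from the transcription start (horizontal axis), with matches on the gene's strand above each line and those on the opposite strand below it. MT2A and MT1H hold 8 matches each, MT1X 4, SLC30A1 2 and MTF1 0.

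The labels were first checked with EGR1 itself. EGR1 was 1.43 to 2.03 FPKM in the vector libraries and 50.2 to 56.3 FPKM with overexpression (log2 change 4.27). In MHCC97H it was 20.2 to 23.1 FPKM in the parental libraries and 32.9 to 50.3 FPKM in those labelled knockout (log2 change 0.83), so the EGR1 mRNA was higher, not lower, under the knockout label. The study checked its knockout clones by western blot and DNA sequencing, and the mRNA level does not show whether the protein was lost. The text therefore speaks of libraries labelled knockout, and no direction of an EGR1 loss is read from them. Summed FPKM per library ranged from 376335 to 437652, and replicates correlated at r = 0.993 to 0.997 over all gene names on the log2 scale. The 10 hepatocyte markers summed to 1844 to 1971 FPKM in the vector libraries, 2735 to 3726 with EGR1, 13.97 to 19.2 in parental MHCC97H and 43.3 to 48.4 in the libraries labelled knockout, and 9, 9, 4 and 5 of them reached a mean of 1 FPKM. In both MHCC97H groups APOA2 was listed at 0 and SERPINA1 was near 0, but ALB was 0.611 to 1.21 FPKM in the parental libraries and 14.1 to 16.5 FPKM in those labelled knockout, and FGB and TF were also called higher in the latter, 3 of 4 hepatocyte markers tested. Of the 4 epithelial markers, KRT8 and KRT18 were high in all groups, EPCAM was near 0 in all and CDH1 was near 0 in PLC/PRF5. Of the 3 leukocyte markers, PTPRC and CD3E were at or near 0, while CD68 was 26.3 to 56.2 FPKM and higher in the libraries labelled knockout than in the parental ones (log2 change 0.90, limma adjusted p = 5.76e-05).

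In PLC/PRF5 the metallothionein pool was almost entirely MT2A and MT1X. MT2A, the most widely expressed metallothionein, was 300.2, 332.7 and 295.7 FPKM in the vector libraries, ranking 161st to 171st of all gene names. With EGR1 overexpression it was 471.7, 476.1 and 493.4 FPKM, and all 3 libraries lay above all 3 vector libraries. In parental MHCC97H it was 3.47, 3.90 and 4.24 FPKM, and in the libraries labelled knockout 2.05, 2.24 and 3.91 FPKM, where the third library lay inside the parental range. In bulk RNA a lower level in each cell and fewer cells that express the gene cannot be told apart. MT2A thus ordered the groups as EGR1, vector, parental and labelled knockout, and only the last 2 overlapped.

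MT1X, a metallothionein of the MT1 subfamily, was 72.1, 72.0 and 69.2 FPKM with the vector and 85.9, 88.7 and 93.6 FPKM with EGR1. Parental MHCC97H had 2.70, 1.28 and 2.65 FPKM, and the libraries labelled knockout 0.905, 0.136 and 0.377 FPKM. The 4 groups followed the same order as for MT2A, here with no overlap between neighbours.

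The other metallothioneins were scarce or listed at 0. MT1G was 3.95, 2.97 and 2.89 FPKM with the vector and 5.83, 7.04 and 7.05 FPKM with EGR1. MT1F was 2.05, 3.07 and 0.755 FPKM with the vector and 3.41, 5.58 and 7.16 FPKM with EGR1. Neither gene overlapped between the PLC/PRF5 groups, and both were listed at 0 in all 6 MHCC97H libraries. MT1H stayed under 1 FPKM, with 0.140, 0.121 and 0.366 FPKM in the vector libraries and 0.840, 0.384 and 0.450 FPKM with EGR1, and was listed at 0 throughout MHCC97H. MT1A was above 0 in 1 vector library (1.08 FPKM), in all 3 EGR1 libraries (1.11, 0.471 and 1.03 FPKM) and in all 3 parental MHCC97H libraries (0.463, 0.0850 and 0.652 FPKM). It was listed at 0 in the 3 libraries labelled knockout. Its neighbouring groups all overlapped. MT1E and MT1M were listed at 0 in all 12 libraries, and a value of 0 in FPKM may be a failed estimate. Of 10 further metallothionein names, 4 were in the table, and of these only MT1B was above 0, with means of 0.168 FPKM with the vector and 0.174 FPKM with EGR1.

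MTF1, the transcription factor, was low and similar in size across the groups. It was 2.12, 1.93 and 1.96 FPKM with the vector, 2.81, 3.23 and 2.68 FPKM with EGR1, 2.81, 3.11 and 2.97 FPKM in parental MHCC97H and 2.61, 2.57 and 2.26 FPKM in the libraries labelled knockout. Parental MHCC97H and EGR1 overlapped at the top of the order, followed by the libraries labelled knockout and then the vector, without overlap. SLC30A1, the exporter, had another order. It was 10.3, 13.6 and 12.5 FPKM with the vector, 22.7, 17.0 and 17.2 FPKM with EGR1, 30.7, 26.7 and 25.8 FPKM in parental MHCC97H and 21.5, 23.2 and 18.0 FPKM in the libraries labelled knockout. SLC30A1 was thus highest in the parental MHCC97H cells, where the metallothioneins were scarce, and its levels in the libraries labelled knockout and with EGR1 overlapped.

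**Figure D2:**
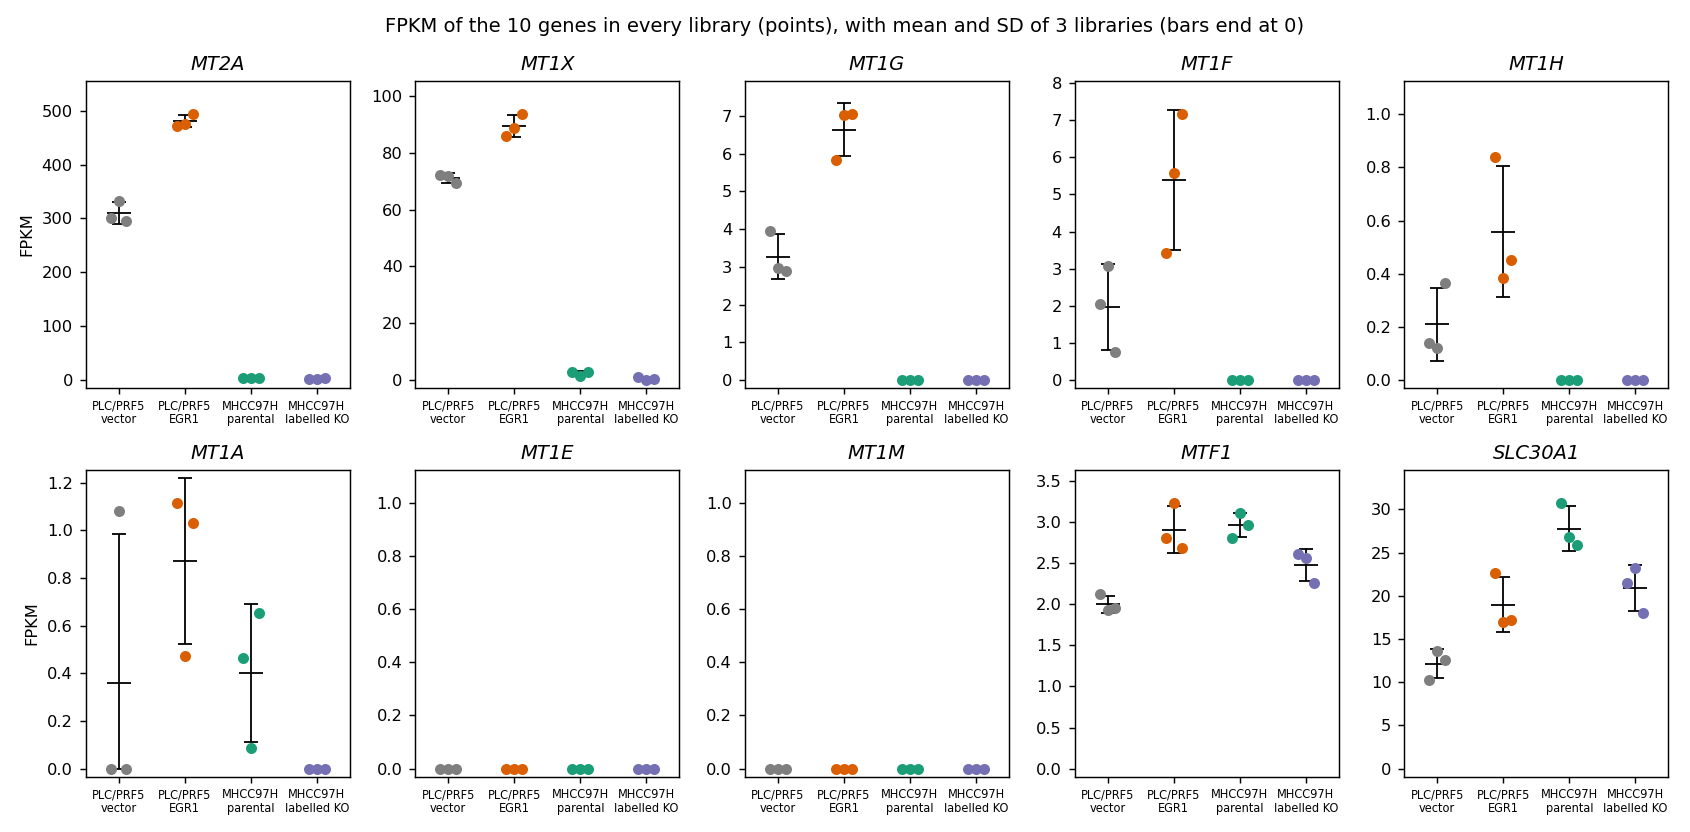
FPKM (vertical axes, each from 0 with its own scale) of the 10 genes in the 12 libraries, as points by group, with the mean and SD of 3 libraries in black. MT2A and MT1X stand at 69.2 FPKM or more in every PLC/PRF5 library and at 4.24 FPKM or less in every MHCC97H library, while SLC30A1 is highest in parental MHCC97H.

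Summed over the 8 metallothioneins, the level was 386 ± 22.6 FPKM (SD, n = 3) with the vector and 583 ± 17.5 FPKM with EGR1, a ratio of 1.51. Parental MHCC97H had 6.48 ± 1.14 FPKM and the libraries labelled knockout 3.20 ± 0.980 FPKM, a ratio of 0.494 between the latter and the former. The groups did not overlap in this sum, since the lowest parental library had 5.27 FPKM and the highest labelled knockout 4.28 FPKM. Vector PLC/PRF5 held 59.7 times the sum of parental MHCC97H. MT2A made up 80.1 ± 0.723% of the sum with the vector and 82.4 ± 0.529% with EGR1, and MT1X 18.4 ± 0.839% and 15.3 ± 0.211%. MT2A was therefore a somewhat larger part of the pool with EGR1, with no overlap between the 2 groups. In MHCC97H the MT2A share was 60.9 ± 11.6% in the parental libraries and 84.9 ± 13.6% in those labelled knockout, ranges that overlapped and rest on values of a few FPKM.

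The first comparison asked how the genes differed in PLC/PRF5 cells with EGR1 overexpression. All 6 genes that could be tested rose with EGR1: the metallothioneins MT1F, MT1G, MT2A and MT1X, the exporter SLC30A1 and the factor MTF1. A gene was tested if its mean over the 6 libraries was at least 1 FPKM, and called if its adjusted p in limma, on log2(FPKM + 1) over all genes tested, was under 0.05. Of all 11671 genes tested, 29.6% were called, 19.2% as higher and 10.4% as lower. The median log2 change was 0.62 over the 6 genes and 0.09 over all genes tested. The 6 of 6 had groups that did not overlap, which was also true of 47.7% of all genes, and their exact permutation p was 0.1 each, the smallest that 3 against 3 libraries allow. Under quantile normalization 46.0% rather than 64.8% of all calls were higher, and MTF1 was then not called (log2 change 0.22, limma adjusted p = 0.164).

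MT1F had the largest fitted change of the 6, a log2 change of 1.15 ± 0.31 (SE; limma adjusted p = 0.0233), and alone of them passed a fitted change of at least 2-fold in FPKM + 1, as did 1.77% of all genes. Its ratio of mean FPKM was 2.75. MT1G rose by 0.84 ± 0.13 (limma adjusted p = 0.00225), a 2.03-fold ratio of mean FPKM. MT2A rose by 0.63 ± 0.09 (limma adjusted p = 0.00226), a 1.55-fold ratio of mean FPKM. These 3 genes cover a wide range of levels, from a few FPKM for MT1F to the top ranks of the library for MT2A. MT1X rose less, by 0.33 ± 0.08 (limma adjusted p = 0.0160), a 1.26-fold ratio of mean FPKM. SLC30A1 rose by 0.60 ± 0.14 (limma adjusted p = 0.0126), and MTF1 by 0.38 ± 0.10 (limma adjusted p = 0.0227). The fitted changes of the exporter and of MT2A were of similar size in the deposited values. With the correction for transcript GC content and length described below they were 0.32 and 0.79. Of the 4 genes under the minimum level, MT1H had a log2 change of 0.36 (limma adjusted p = 0.117) and MT1A one of 0.53 (limma adjusted p = 0.305) when all genes above 0 were tested, and MT1E and MT1M were listed at 0. In that fit MT1F (limma adjusted p = 0.0852) and MTF1 (limma adjusted p = 0.0505) were not called. The calls of MT1X, MT1F and MTF1 were lost without the third vector library or without the second EGR1 library, which left 3 of 6 called, and those of MT1X and MT1F without the third EGR1 library, which left 4. The summed hepatocyte markers, given above, were also higher with EGR1 in every library, a sum carried mostly by SERPINA1 (means of 1372 and 2580 FPKM). Of the 9 tested, 4 were called higher, 1 lower (TF) and 4 neither, and their part in these changes was not tested.

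The second comparison set the MHCC97H libraries labelled knockout against the parental ones. MT1X fell and SLC30A1 fell in the deposited values, while MT2A and MTF1 were not called. These 2 of 4 tested genes stood beside 66.3% of all 11577 genes called, 34.8% as higher and 31.5% as lower, so the share of called members was no larger than the background. The median log2 change was -0.41 over the 4 genes and 0.02 over all genes tested, and the groups did not overlap for 3 of 4 members and for 71.8% of all genes. When every library was scaled to the same total, 41.5% rather than 52.5% of all calls were higher and all 4 members were called lower.

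MT1X fell by 1.12 ± 0.23 on the log2 scale (limma adjusted p = 0.00254), from a mean of 2.21 FPKM to 0.473 FPKM, and was the 1 member that also passed a change of at least 2-fold, as did 8.89% of all genes. It reached the minimum level only through the parental libraries, where it was higher, so the filter leaned towards a fall. Tested among all genes above 0, its limma adjusted p was 0.0164. SLC30A1 fell by 0.40 ± 0.11 (limma adjusted p = 0.0129). MT2A had a log2 change of -0.41 ± 0.18 (limma adjusted p = 0.0641, exact permutation p = 0.3) and MTF1 one of -0.19 ± 0.11 (limma adjusted p = 0.140, exact permutation p = 0.1). MT2A turned on 1 library: without the third library labelled knockout its log2 change was -0.63 and it was called (limma adjusted p = 0.00320). MT1A, under the minimum level, had a log2 change of -0.46 (limma adjusted p = 0.0447) when all genes above 0 were tested. A log2 change of such low values depends on the added pseudocount, since 1 FPKM was added to values of similar size.

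Changes in this comparison followed the base composition and length of the transcripts across all genes. A smooth trend on transcript GC content and length accounted for 54.6% of the variance of the log2 changes over 10806 genes, against 18.2% in the PLC/PRF5 comparison. MT2A transcripts have a GC content of 63.0%, MT1X 50.9%, MTF1 46.7% and SLC30A1 38.0%, against a median of 49.7% over genes. With the trend removed, MT2A fell by 1.06 (limma adjusted p = 4.16e-04) and MT1X by 1.13 (limma adjusted p = 0.0131). SLC30A1 instead rose by 0.32 (limma adjusted p = 0.00266), and MTF1 had a log2 change of 0.06 (limma adjusted p = 0.577). The direction of SLC30A1 in MHCC97H therefore depended on this correction, while the log2 changes of MT1X and MT2A were below 0 with and without it, that of MT2A called only with it. In PLC/PRF5 the correction left all 6 genes higher, with SLC30A1 at 0.32 (limma adjusted p = 0.0164) and MT2A at 0.79 (limma adjusted p = 2.67e-04), and only MT1X was no longer called (0.30, limma adjusted p = 0.0519).

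**Figure D3:**
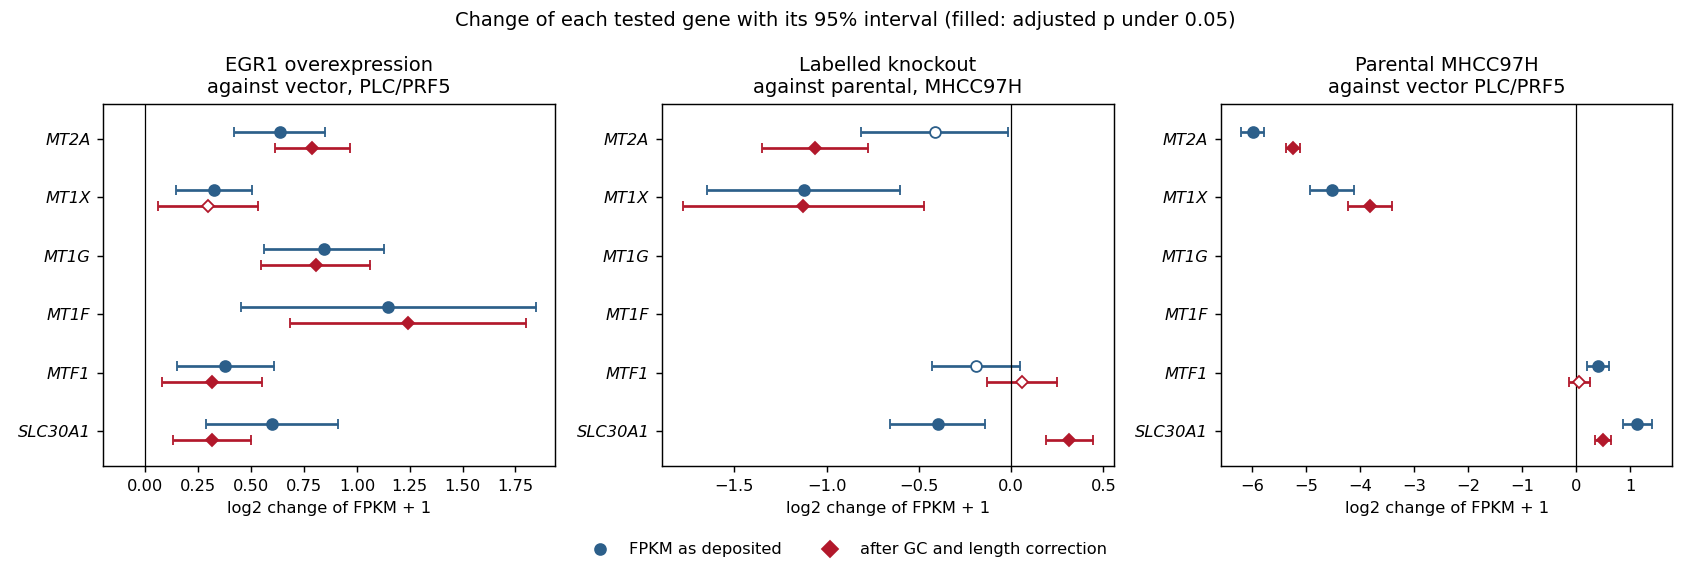
Log2 change of FPKM + 1 (horizontal axes, scales differ) with its 95% interval for each tested gene in 3 comparisons, from the deposited values (circles) and after the GC and length correction (diamonds), filled where the limma adjusted p is under 0.05. In PLC/PRF5 all 6 genes lie above 0 in both fits, and in MHCC97H SLC30A1 changes from -0.40 to 0.32. MT1G and MT1F have no point where both or one of the groups are listed at 0.

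The changes in the 2 cell lines were then compared directly, in a limma fit of all 12 libraries with the difference between them. For all 6 genes tested the change in the libraries labelled knockout was lower than the change with EGR1 overexpression. Of all 12090 genes 63.8% were called, 33.4% in this direction and 30.4% in the other. MT1F and MT1G were listed at 0 in MHCC97H, so their difference only repeats the PLC/PRF5 change and says nothing about MHCC97H. For MT2A the difference was -1.05 ± 0.20 (limma adjusted p = 7.51e-04) and for MT1X -1.45 ± 0.27 (limma adjusted p = 5.71e-04), both on the log2 scale. With the GC and length correction that of SLC30A1 was -0.03 (limma adjusted p = 0.842). MT1X rose with EGR1 overexpression and fell in the libraries labelled knockout. The EGR1 mRNA was above that of the controls in each case. In the edited cells this mRNA is no measure of EGR1 protein, so no EGR1 dose is compared between the lines.

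The third comparison set parental MHCC97H against vector PLC/PRF5. It shares its libraries with the other comparisons, and cell line and handling cannot be told apart in it. Metallothioneins were far lower in MHCC97H, whereas MTF1 and SLC30A1 were higher. All 5 genes tested were called, 2 higher and 3 lower, and none overlapped between the groups. Of all 12046 genes 79.8% were called, 38.8% as higher and 40.9% as lower, and 81.0% did not overlap. MT2A had a log2 change of -6.00 ± 0.09 (limma adjusted p = 3.54e-10), and its mean FPKM was 80.0 times as high in PLC/PRF5. MT1X had a log2 change of -4.52 ± 0.18 (limma adjusted p = 4.99e-08), with a mean 32.2 times as high in PLC/PRF5. A change of at least 2-fold was found for 36.8% of all genes, so differences of that size were common between the lines. MT1G was among the 3 called lower, with no fold given because it was listed at 0 in MHCC97H. It reached the minimum level only through the vector libraries, so its direction was fixed by that filter. SLC30A1 was higher by a log2 change of 1.13 ± 0.12 (limma adjusted p = 2.56e-05), and by 0.50 (limma adjusted p = 8.17e-05) with the GC and length correction. MTF1 was higher by 0.40 ± 0.09 (limma adjusted p = 0.00275), and by 0.06 (limma adjusted p = 0.539) with the correction. Hepatocyte markers were also far lower in MHCC97H, and their part in the metallothionein difference was not tested.

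The other zinc transporters were followed through their 2 families. The SLC30A proteins, numbered from 1 to 10, are all called exporters here by family, whichever way each moves zinc. Most of them lower cytosolic zinc by moving it out of the cell or into organelles. The SLC39A proteins, numbered from 1 to 14, bring zinc into the cytosol. In PLC/PRF5, of 7 exporters tested only SLC30A1 rose and none fell, with a median log2 change of 0.13 over the 7, where 19.2% of all genes were called higher and 10.4% lower. Of 11 importers tested 2 rose and 2 fell, with a median of -0.02. SLC39A10 rose by 0.56 and SLC39A6 by 0.48 (limma adjusted p = 0.0155 and 0.00930), both plasma membrane importers. SLC39A4, the intestinal zinc importer, had a log2 change of -0.37 and SLC39A13 one of -0.30 (limma adjusted p = 0.0470 and 0.0429). With the GC and length correction the 2 falls were not called and 3 exporters were called, 1 higher and 2 lower.

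In MHCC97H 3 of 5 exporters tested fell and 0 rose, where 31.5% of all genes fell and 34.8% rose. SLC30A7, which loads zinc into the Golgi, fell by 0.64 (limma adjusted p = 0.00166) and SLC30A9 by 0.52 (limma adjusted p = 0.0109), beside SLC30A1. With the GC and length correction the exporters turned over, with 3 called higher, SLC30A1 among them, and 0 lower. SLC30A7 then had a log2 change of 0.21 (limma adjusted p = 0.136) and SLC30A9 one of 0.15 (limma adjusted p = 0.149). Of 10 importers 6 rose and 4 fell, where 66.3% of all genes were called in either direction. SLC39A10 fell by 1.14 (limma adjusted p = 4.84e-04), from a mean of 21.0 FPKM to 8.93 FPKM, and remained lower by 0.41 on the log2 scale with the correction, a change of -0.41 (limma adjusted p = 0.00375). SLC39A3 rose by 1.03, SLC39A7 by 0.84 and SLC39A13 by 0.75 (limma adjusted p = 1.16e-04, 1.60e-04 and 2.28e-04). With the correction these were 0.28, 0.48 and 0.14, and SLC39A13 was not called (limma adjusted p = 0.213). In all, 4 importers were then called higher and 1 lower.

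**Figure D4:**
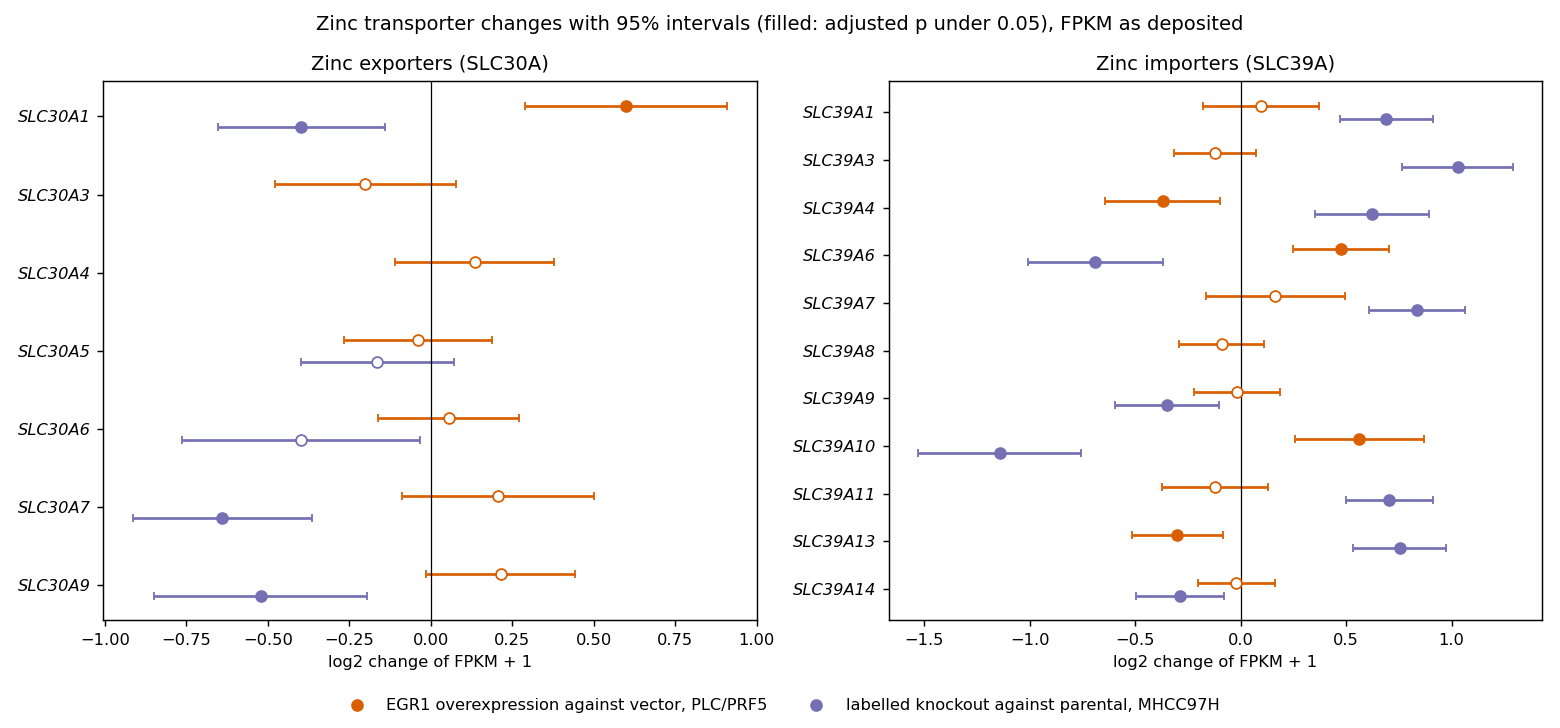
Log2 change of FPKM + 1 (horizontal axes, scales differ) with its 95% interval for the tested zinc exporters (left) and importers (right), for EGR1 overexpression in PLC/PRF5 and for the libraries labelled knockout in MHCC97H, filled where the limma adjusted p is under 0.05. SLC30A1 and SLC39A10 rise with EGR1 (0.60 and 0.56) and fall in the libraries labelled knockout (-0.40 and -1.14). All values are from the deposited FPKM without the GC and length correction.

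Between the lines at baseline, 3 of 5 exporters were higher and 1 lower in MHCC97H, and 2 of 11 importers were higher and 8 lower, where 38.8% of all genes were higher and 40.9% lower. With the GC and length correction 2 of the 5 exporters were higher and 3 lower, and SLC30A6 turned from 0.36 to -0.28 (limma adjusted p = 0.0110 and 0.00376). SLC39A7, an importer of the endoplasmic reticulum and Golgi, had a log2 change of -2.36 (limma adjusted p = 2.73e-08), from a mean of 105.9 FPKM in the vector libraries to 19.9 FPKM. SLC39A8 had one of -2.13 and SLC39A3 one of -1.58, while SLC39A10 was higher by 1.69 (limma adjusted p = 2.07e-07, 2.31e-06 and 1.39e-05). The correction left these 4 importers in the same direction, with 2 higher and 8 lower of the 11.

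Other pathways that act on metallothionein genes were described in the same way. Of 8 genes of the metal and oxidative stress response, 7 rose and none fell in PLC/PRF5 with EGR1, with a median log2 change of 1.07, where 19.2% of all genes rose and 10.4% fell. GCLM, a subunit of the enzyme that starts glutathione synthesis, rose by 1.37 (limma adjusted p = 3.08e-04), and HMOX1, the heme oxygenase induced by metals and oxidants, by 1.20 (limma adjusted p = 6.98e-05). SRXN1, which repairs oxidized peroxiredoxins, rose by 1.25 (limma adjusted p = 6.22e-05), and TXNRD1, the thioredoxin reductase, by 1.12 (limma adjusted p = 8.58e-05). These 4 changes were larger than those of MT2A and MT1X, and all 4 were called higher with the GC and length correction as well. In MHCC97H 4 of the 8 rose and 3 fell in the deposited values, where 34.8% of all genes rose and 31.5% fell, but with the GC and length correction 5 were called higher and 0 lower. HMOX1 rose by 1.41 (limma adjusted p = 3.73e-05), from a mean of 111 FPKM to 295 FPKM, while MT1X fell. HSPA1A and HSPA1B, the inducible heat shock proteins, rose by 0.98 and 0.90 (limma adjusted p = 8.06e-05 and 1.01e-04), and SLC7A11, the cystine transporter, fell by 0.98 (limma adjusted p = 0.00173). With the correction these 4 changes were 0.87, 0.46, 0.41 and, for SLC7A11, -0.07 (limma adjusted p = 0.538). GCLM turned from -0.51 to 0.22 (limma adjusted p = 0.0114). Between the lines 6 of the 8 were higher in parental MHCC97H than in vector PLC/PRF5 and 0 lower, where 38.8% of all genes were higher, among them SLC7A11 by 4.33 and GCLM by 3.46 on the log2 scale (limma adjusted p = 5.31e-08 and 1.16e-07), the opposite direction to the metallothioneins.

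Of 7 genes of the glucocorticoid response tested in PLC/PRF5, 2 rose and 2 fell with EGR1, against 19.2% and 10.4% of all genes. TSC22D3, a classic glucocorticoid target, fell by 0.60 (limma adjusted p = 0.00171), and DUSP1 by 0.28 (limma adjusted p = 0.0452). NR3C1, the glucocorticoid receptor, rose by 0.49 (limma adjusted p = 0.0141), and the kinase SGK1 by 0.43 (limma adjusted p = 0.0450). With the GC and length correction NR3C1 (0.21, limma adjusted p = 0.0577) and DUSP1 (-0.16, limma adjusted p = 0.210) were not called, and PER1 was called higher (0.28, limma adjusted p = 0.0101). In MHCC97H 4 of 7 fell and 0 rose, against 31.5% and 34.8% of all genes, led by SGK1 with a log2 change of -1.01 (limma adjusted p = 1.02e-04). With the correction SGK1 was still lower (-0.75, limma adjusted p = 7.63e-04), NR3C1 turned from -0.35 to 0.34 (limma adjusted p = 0.00998), and FKBP5 and KLF9 were not called (limma adjusted p = 0.135 and 0.273). Then 4 of the 7 were called lower and 1 higher, but 3 of the 4 had not been called before it. Between the lines 6 of 7 were lower in MHCC97H and 1 higher, with and without the correction, where 40.9% of all genes were lower and 79.8% were called in either direction. DUSP1 was lower there by a log2 change of -4.49 (limma adjusted p = 6.44e-10) and PER1 by -2.62 (limma adjusted p = 2.80e-07), the same direction as MT2A and MT1X.

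Copper handling genes, whose products move or use the other metal that metallothioneins bind, were not called in PLC/PRF5: in limma 0 of 9 tested passed the threshold, with 1 at an unadjusted p under 0.05 and 1 called higher with the GC and length correction. In MHCC97H 3 of 7 rose and 3 fell, where 66.3% of all genes were called. The copper chaperone CCS led with 1.11 (limma adjusted p = 1.44e-04), and with the correction it rose by 0.40 (limma adjusted p = 0.0231), 2 of the 7 being higher and 1 lower. Between the lines 2 of 8 were higher and 5 lower, against 38.8% and 40.9% of all genes, and the 2 copper pumps differed in direction: ATP7B, the pump of hepatocytes, had a log2 change of -2.36 and ATP7A one of 2.07 (limma adjusted p = 2.98e-07 and 2.72e-07). HERPUD1, a gene of the endoplasmic reticulum stress response that lies beside the metallothionein cluster on chromosome 16, fell by 0.49 with EGR1 in PLC/PRF5 (limma adjusted p = 0.0226), where the tested metallothioneins rose. Between the lines it had a log2 change of -1.41 (limma adjusted p = 2.02e-05), against -6.00 for MT2A.

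Genes whose pattern was most like the metallothionein sum were ranked by Pearson's r on the log2 scale, among 11442 genes. Over the 12 libraries these were FGFR3, ODC1, NFKB2, NAT8L and MPP1, with r of 0.997 to 0.998. This measure mostly follows the difference between the cell lines, which all libraries of a line share. ODC1, the first enzyme of polyamine synthesis, for example, had means of 322 FPKM with the vector, 377 FPKM with EGR1, 51.1 FPKM in parental MHCC97H and 44.8 FPKM in the libraries labelled knockout. By the mean of the 2 values of r within each line, over 6 libraries each, the first 5 were INHBB, MFGE8, MAOB, ODC1 and KDELR3, from 0.964 down to 0.947. Each line holds 2 groups of 3 libraries, so these values of r mostly follow the difference between its groups. ODC1 was the gene in both lists. MAOB, the monoamine oxidase, followed the sum within each line but not across them: its means were 0.0351 FPKM with the vector and 0.372 FPKM with EGR1, and 16.7 FPKM in parental MHCC97H and 6.22 FPKM in the libraries labelled knockout. Both PLC/PRF5 means of MAOB were under the minimum level of 1 FPKM used for the tests.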

How the data were processed

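Messenger RNA was captured by oligo(dT), duplex-specific nuclease was applied to the libraries, and sequencing used the Illumina NovaSeq platform. The authors deposited FPKM per gene name for all 12 libraries, and the submitters' processing notes name StringTie and hg38. The aligner, annotation and strand setting were not given in the sources used here. Duplex-specific nuclease cuts abundant cDNA, which may change the levels of abundant genes. The members and the gene lists were chosen with earlier results of these data known.

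FPKM were used as deposited and transformed to log2(FPKM + 1), so the fold change of low genes is understated. Each pair of groups was fitted alone without covariates, in limma 3.58.1 (R 4.3.3) with an intensity trend, for genes averaging at least 1 FPKM. P-values were 2-sided and adjusted by Benjamini-Hochberg over all genes tested, with a threshold of 0.05. Exact permutation tests are 2-sided. Gene names were matched to GENCODE 29 (19458 of 19932, 97.6%, leaving out 3031 assembled loci). The GC and length correction removed a trend in transcript GC content and log length, fitted with splines of 5 degrees of freedom, and removes a real change that follows them as well. The text names all 10 members, EGR1 and, for each list, up to 4 called genes with the largest change. It also names MT1B, the markers and, with the correction, PER1 and GCLM, chosen after their values were seen. Counts over the genes beside the cluster are not reported here. On simulated data for the PLC/PRF5 comparison (11396 genes), 88% of log2 changes of 1 and 93% of 2 were recovered, with 0.0803% of other genes called. For MHCC97H (11368 genes) these were 87%, 94% and 0.0626%, and between the lines (11083 genes) 81%, 88% and 0.0550%. The simulated noise was independent for each gene, with no GC or length trend, scaling shift or effect shared by a group's cultures. These rates therefore do not give the share of false calls in the real libraries. The alternatives were a pseudocount of 0.1, no minimum level, scaling to the same total, quantile normalization, no trend, 1 fit of all libraries, a threshold of 0.01, a change of at least 2-fold, leaving out each library, the replicate number as a block, and the GC and length correction. Its use on the gene lists was chosen after seeing the data. Sequences came from GENCODE 29 and from RefSeq promoters on GRCh38.p14. Figures were made in matplotlib 3.10.9 (Python 3.11.15).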

Additional observations from a re-analysis of the deposited data

Results flagged for a closer look

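For 6 genes the change in the MHCC97H libraries labelled knockout differed from the change with EGR1 in PLC/PRF5, by a limma test of the difference itself over 12090 genes, of which 63.8% were called. On the log2 scale the difference was -1.15 for MT1F (limma adjusted p = 0.0149), -0.84 for MT1G (3.26e-04), -1.45 for MT1X (5.71e-04), -1.05 for MT2A (7.51e-04), -0.57 for MTF1 (0.00145) and -0.995 for SLC30A1 (6.64e-04). MT1F and MT1G were listed at 0 in MHCC97H, so their difference is the PLC/PRF5 change with its sign turned. With the GC and length correction the difference was -0.27 for MTF1 (limma adjusted p = 0.0880) and -0.03 for SLC30A1 (0.842), and the 4 metallothioneins were still called. The 2 cell lines were perturbed in different ways, and line and perturbation cannot be told apart.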

How the results depend on the processing

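Of 365 changes of single genes under the alternatives, 324 had the same direction and call, 30 lost a call, 7 gained one and 4 reversed. The reversals were SLC30A1 and MTF1 in MHCC97H, at 0.32 and 0.059 on the log2 scale with the GC and length correction, and again 0.32 and 0.059 with that correction and the replicate block. In PLC/PRF5 the 6 genes called became 2 at a threshold of 0.01 and 1 with a change of at least 2-fold, and 3 to 6 when each library was left out in turn. In MHCC97H the 2 called became 4 after scaling to the same total, 1 at 0.01 and 1 at 2-fold, and 2 to 3 when each library was left out. That scaling set the median log2 change of all MHCC97H genes at -0.11. Leaving out libraries gave 5 to 6 called between the lines at baseline and 6 in each fit of the difference. MT1X in PLC/PRF5 was not called when all 12 libraries shared 1 fit (limma adjusted p = 0.204). Of 18 list counts 7 moved by over 1.5 times with the GC and length correction.

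The replicate numbers did not pair the samples throughout: the correlations of same-numbered deviations were -0.13, 0.14 and -0.08 in PLC/PRF5 and 0.03, 0.03 and 0.47 in MHCC97H. The third library labelled knockout was closest to the third parental one, and the second EGR1 library to the second vector one. The other libraries were closest to one of another number. With the replicate number as a block, 6 genes were called in PLC/PRF5, 3 in MHCC97H and 6 for the difference. The gain was MT2A (limma adjusted p = 0.0248), and no other call changed. Depth is unknown, so values of a few FPKM, such as all metallothioneins in MHCC97H, carry an unknown counting error.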
